A study of Mus musculus with 12 samples.

Results

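The genes described here are the 28 genes of sterol synthesis, sensing, transport and uptake control, measured by RNA sequencing in whole mouse lungs after bleomycin. They were chosen by name from the pathway: 19 enzymes that lead from acetyl-CoA to cholesterol, 4 genes of the sterol sensor, and 5 genes of sterol transport, storage, efflux and uptake control. The gene tables held 55491 entries, all 28 genes were among them, and all 28 were among the 17909 genes that passed the filter on low counts. Every mouse was a wild-type C57BL/6J male aged 10 weeks and had received bleomycin, a chemotherapy drug used to bring on lung scarring in mice, through the oropharyngeal route (0.0125 U per mouse, near 0.5 U/kg). The 12 libraries came from 3 groups of 4 mice. In the first group, nanoparticles were injected retro-orbitally into the blood at 2 mg per dose, daily from day 14 to day 18 (5 doses), and lungs were taken at day 21. These particles, 609.22 ± 15.30 nm across, had a core of poly(lactide-co-glycolide) under a coat of the surfactant poly(ethylene-alt-maleic anhydride). The second group had the vehicle, phosphate-buffered saline, and was also taken at day 21. The third group was taken at day 14 with no treatment. No uninjured lungs are analysed here, so each level is set against bleomycin-injured lungs. The lungs were homogenised whole without the large airway and trachea, so fewer cells of a type and less RNA per cell cannot be told apart in any value below.

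Cells make cholesterol from acetyl-CoA through mevalonate. The same route gives farnesyl and geranylgeranyl groups, the lipid anchors of small G proteins. When sterol is scarce in the endoplasmic reticulum, SCAP carries the precursor of the transcription factor SREBP2 to the Golgi, where it is cut and set free to switch on the enzyme genes. When sterol is plentiful, INSIG1 and INSIG2 hold SCAP back, and oxysterols switch on liver X receptor, which raises sterol efflux and lowers uptake. In the lung, type 2 alveolar cells place cholesterol in surfactant and alveolar macrophages clear it.

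The promoters of these genes are known to carry sites for SREBP beside those of the partner factors NF-Y, which binds the CCAAT box, and Sp1, which binds the GC box. RefSeq promoters on GRCm38.p6, 300 bases that run from 250 before the start to 50 after it, were matched by symbol for 24 of the 28 genes. The others were Fdps, Fdft1, Sqle and Stard4. Below are the promoters of Insig1 and Mvd, the 2 genes that differed from day 14 in both groups at day 21, and that of Hmgcs1, the only one of the 24 genes with the searched core of the sterol regulatory element. Each is written 5′ to 3′ along the strand of its gene. Capitals mark the motifs searched on both strands, which are the CCAAT box with the letters CCAAT, read as ATTGG on the other strand, the GC box with the letters GGGCGG, read as CCGCCC on the other strand, the E-box with the letters CACGTG and, in Hmgcs1, the sterol regulatory element core with the letters TCACNCCAC.
Insig1, chr5:28071162-28071461, plus strand: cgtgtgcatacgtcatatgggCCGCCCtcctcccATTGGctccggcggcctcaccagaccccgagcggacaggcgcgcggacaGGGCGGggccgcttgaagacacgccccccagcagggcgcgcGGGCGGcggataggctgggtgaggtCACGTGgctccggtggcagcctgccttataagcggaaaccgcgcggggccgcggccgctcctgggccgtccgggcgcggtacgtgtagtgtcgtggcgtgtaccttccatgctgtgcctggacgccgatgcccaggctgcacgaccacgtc
Mvd, chr8:122443373-122443672, minus strand: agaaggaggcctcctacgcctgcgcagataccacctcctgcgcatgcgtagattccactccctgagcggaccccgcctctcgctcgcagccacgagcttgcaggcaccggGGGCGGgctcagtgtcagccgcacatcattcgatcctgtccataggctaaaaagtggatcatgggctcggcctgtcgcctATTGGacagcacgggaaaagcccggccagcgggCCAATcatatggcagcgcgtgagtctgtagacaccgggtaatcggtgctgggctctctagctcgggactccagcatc
Hmgcs1, chr13:119690101-119690400, plus strand: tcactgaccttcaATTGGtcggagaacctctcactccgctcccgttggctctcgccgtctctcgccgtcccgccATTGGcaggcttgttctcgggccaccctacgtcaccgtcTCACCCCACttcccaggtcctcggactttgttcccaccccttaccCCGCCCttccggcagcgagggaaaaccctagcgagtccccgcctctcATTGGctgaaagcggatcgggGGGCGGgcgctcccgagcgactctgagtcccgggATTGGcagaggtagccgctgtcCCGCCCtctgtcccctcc
The Insig1 promoter held 1 CCAAT box at 216 bases before the start, 3 GC boxes and 1 E-box at 101 bases before the start. The Mvd promoter held 2 CCAAT boxes, at 60 and 27 bases before the start, and 1 GC box at 140 bases before it. In Hmgcs1 there were 4 CCAAT boxes, 3 GC boxes and the core of the sterol regulatory element at 137 bases before the start. No marked motif overlapped another in these 3 promoters. Over the 24 genes, a CCAAT box was found in 20 (83.3%), where 41.1% of 27025 genes in the table held one, and 15 of the 16 enzyme genes matched had one. The GC box was found in 21 of 24 (87.5%), against 38.2% of all genes, and the E-box in 6 of 24 (25%), against 8.09%. The core of the sterol regulatory element was found in 1 of 24 (4.17%), against 1.44%. These shares describe letters in a fixed window, not binding. The background takes in every gene of the promoter table, whether or not it passed the filter on low counts, as all the sterol genes did. Genes of like expression or base content were not compared.

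Library totals were 24138582 to 28910459 expected counts in nanoparticle lungs, 28001006 to 36208498 in vehicle lungs and 25706260 to 42714693 in day 14 lungs. Counts of single sterol genes in a library lay between 201 (Tm7sf2) and 10527 (Abca1), well above the floor of 3 counts, which was 0.0719 to 0.125 counts-per-million (CPM) and covers counting error only. Markers of alveolar type 2 cells summed to 24203 to 25108 CPM in nanoparticle lungs, 24169.6 to 28329 CPM in vehicle lungs and 20845 to 24237 CPM in day 14 lungs. Markers of hepatocytes, which make much sterol, summed to 0.392 to 1.32 CPM over all 12 libraries. Mouse 3 of the nanoparticle group stood apart. Its 8 neutrophil markers summed to 1245 CPM, against 51.6 to 166 CPM in the other 11 libraries. Its mean centred log2 CPM of the 15 markers of dividing cells was −1.33, the lowest of all. Values of several genes in which it lay apart from its group are also given without it. Day 14 mouse 2 had the highest score of immediate early genes, 1.42 against −0.53 to 0.49 in the other libraries.

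Levels between genes are compared in transcripts-per-million (TPM), which accounts for length. All 19 enzymes were present in every library. Farnesyl diphosphate synthase, Fdps, which builds the branch-point isoprenoid, had the highest mean of the 28 genes (83.9 TPM over 12 libraries), followed by Hmgcs1 (76.4 TPM), which makes HMG-CoA. The next were Soat1 (72.5 TPM), which esterifies cholesterol for storage, and Srebf2 (60.2 TPM), which encodes SREBP2. At the low end were Tm7sf2 (13.5 TPM), a sterol reductase, Lss (12.4 TPM), which closes the rings of lanosterol, and Hsd17b7 (7.99 TPM), a ketosteroid reductase. The mean was above the median of all genes tested in 26 of 28 genes, Lss and Hsd17b7 being below it. The biological coefficient of variation was below the median of genes tested in 23 of 28. The widest spread belonged to Abca1 (coefficient 0.202) and Pmvk (0.198), and the narrowest to Scap (0.0615) and Fdps (0.0637).

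Neighbours in this order mostly did not differ beyond their spread. Over the 12 libraries Fdps ran from 78.3 to 87.9 TPM and Hmgcs1 from 62.5 to 87.7 TPM, so their ranges overlapped. Insig1 (39.3 to 69.4 TPM), Pmvk (33.2 to 83.6 TPM) and Idi1 (34.5 to 53.4 TPM) also overlapped. At the bottom, the range of Hsd17b7 (5.25 to 10.2 TPM) crossed that of Lss (10.02 to 14.95 TPM) only at its upper end. The summed TPM of the 19 enzymes was 590 ± 25.6 in nanoparticle lungs, 594 ± 25.9 in vehicle lungs and 615 ± 44.4 in day 14 lungs (SD, n = 4 each). It spanned 562 to 622 in nanoparticle lungs, 565 to 625 in vehicle lungs and 553 to 655 in day 14 lungs, and the 3 ranges overlapped throughout.

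**Figure D1:**
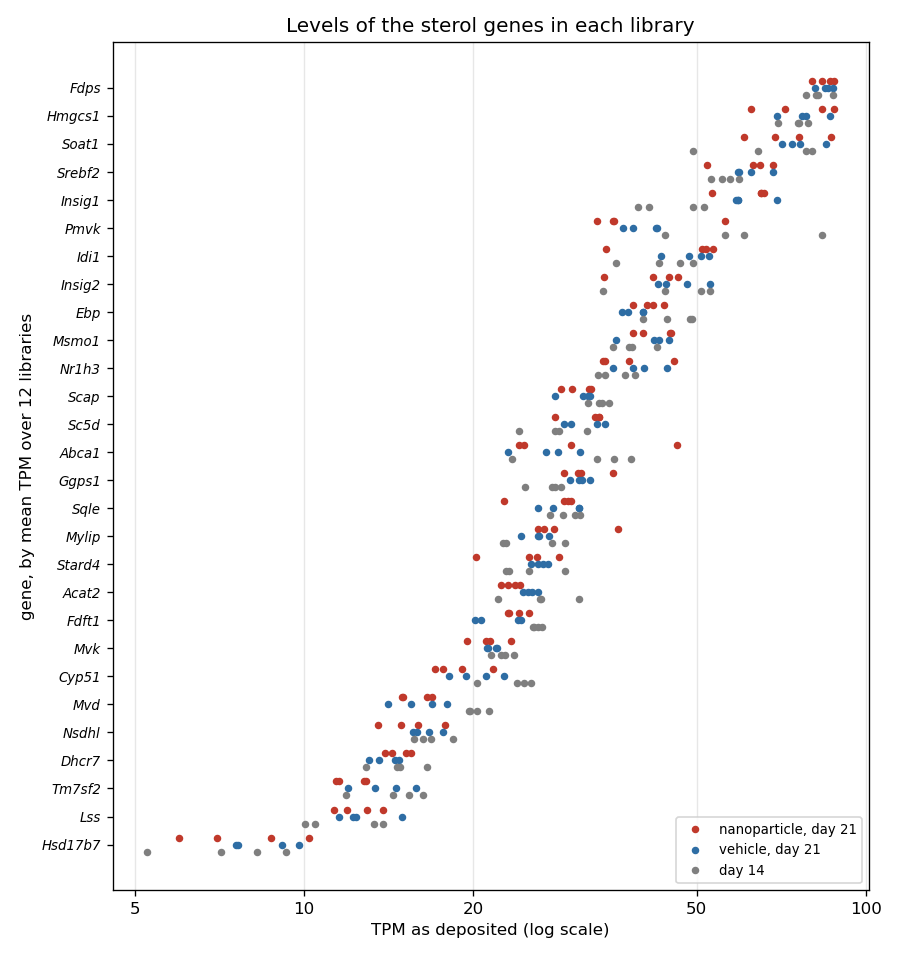
Deposited TPM (x axis, log scale) of each of the 28 sterol genes (y axis, ordered by mean over 12 libraries). Each point is 1 mouse, coloured by group, with nanoparticle lungs at day 21 above vehicle lungs at day 21 and day 14 lungs in each row. The points of the 3 groups overlap for most genes. Those of Insig1, Mvd, Ggps1 and Fdft1 at day 14 lie apart from both groups at day 21, for Ggps1 and Fdft1 by a small gap.

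The first question was whether nanoparticle lungs differed from vehicle lungs at day 21 in these genes. No sterol gene passed the test. In edgeR's quasi-likelihood test with Benjamini-Hochberg adjustment, 0 of 28 genes passed adjusted p under 0.05, where 0% of all 17909 genes passed. None of the 28 had an unadjusted p under 0.05 either, a level that 762 of all genes reached, and DESeq2 called 0 of the 28 (19 of all genes, 17 higher and 2 lower). No gene had its 4 nanoparticle libraries all above or all below the 4 vehicle libraries, a state that 3.55% of all genes were in (1.8% above and 1.75% below). The median log2 fold change of the 28 genes was −0.02, with 11 positive and 17 negative, beside 0.00 for all genes tested.

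The 95% confidence intervals of these differences were read gene by gene. Each covers 1 gene alone and is not adjusted for the number of genes. For 27 of 28 genes the whole interval lay within a 1.5-fold change in either direction. The gene outside 1.5-fold was Abca1, which exports cholesterol from cells (log2 fold change 0.21, interval −0.24 to 0.66). In nanoparticle lungs Abca1 stood at 196, 157, 309 and 169.9 CPM, against 148, 191, 198 and 181 CPM in vehicle lungs. Only mouse 3 of the nanoparticle group lay above the vehicle range, and without it the log2 fold change was −0.04 (interval −0.35 to 0.27). The interval of Pmvk, −0.45 to 0.44 with all mice, ran from −0.59 to 0.16 without that mouse and so just reached 1.5-fold. The narrowest interval was that of Scap (−0.01, at most 0.11 from 0).

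Tm7sf2 had the smallest p of the 28 in this comparison. It stood at 8.75, 8.35, 8.05 and 9.09 CPM in nanoparticle lungs, against 9.66, 9.22, 10.8 and 9.06 CPM in vehicle lungs. The groups overlapped at mouse 4 of each. Its log2 fold change was −0.18 (SE 0.09), with an unadjusted p = 0.0681 in edgeR and adjusted p = 0.999. Part of this gene's exons, 12.1% of their bases, is shared with Vps51 on the same strand, so reads there may have been split between them.

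By step of the route, all 5 genes of mevalonate synthesis and activation had log2 fold changes just below 0, from −0.10 for Acat2, the thiolase of the first step, to −0.0025 for Pmvk. Leaving out nanoparticle mouse 3 put Hmgcs1 (0.06) and Mvk (0.02) above 0, with Acat2 (−0.11), Mvd (−0.05) and Pmvk (−0.215) below it. Hmgcs1 averaged 153 ± 20.9 CPM in nanoparticle lungs and 156 ± 13.0 CPM in vehicle lungs (SD, n = 4 each). The isoprenoid genes lay between −0.03 for Idi1 and 0.09 for Ggps1, with Fdps at −0.0036 (SE 0.05). Without nanoparticle mouse 3, Idi1 had 0.09 (SE 0.09). The genes from squalene to lanosterol lay between −0.06 for Sqle, the epoxidase that first adds oxygen, and 0.06 for Lss. The 8 genes from lanosterol to cholesterol lay between −0.18 for Tm7sf2 and 0.04 for Ebp, and Dhcr7, the last reductase, had 0.03.

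The sensor genes showed the narrowest range. Srebf2 stood at 174, 192, 146 and 175 CPM in nanoparticle lungs, against 189.6, 162, 167 and 181 CPM in vehicle lungs. The lowest and highest values were both in nanoparticle lungs, and the log2 fold change was −0.02 (SE 0.08). Those of Scap, Insig1 and Insig2 were −0.01, 0.02 and 0.00. Among the transport and efflux genes, Mylip, a ubiquitin ligase that removes lipoprotein receptors, had 0.16 (SE 0.10), Nr1h3, which encodes a liver X receptor, 0.00 (SE 0.09), Stard4, a sterol carrier, −0.09 (SE 0.08), and Soat1 −0.14 (SE 0.09). Without nanoparticle mouse 3 these were 0.05 (SE 0.08) for Mylip, −0.09 for Nr1h3 and −0.01 for Stard4.

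**Figure D2:**
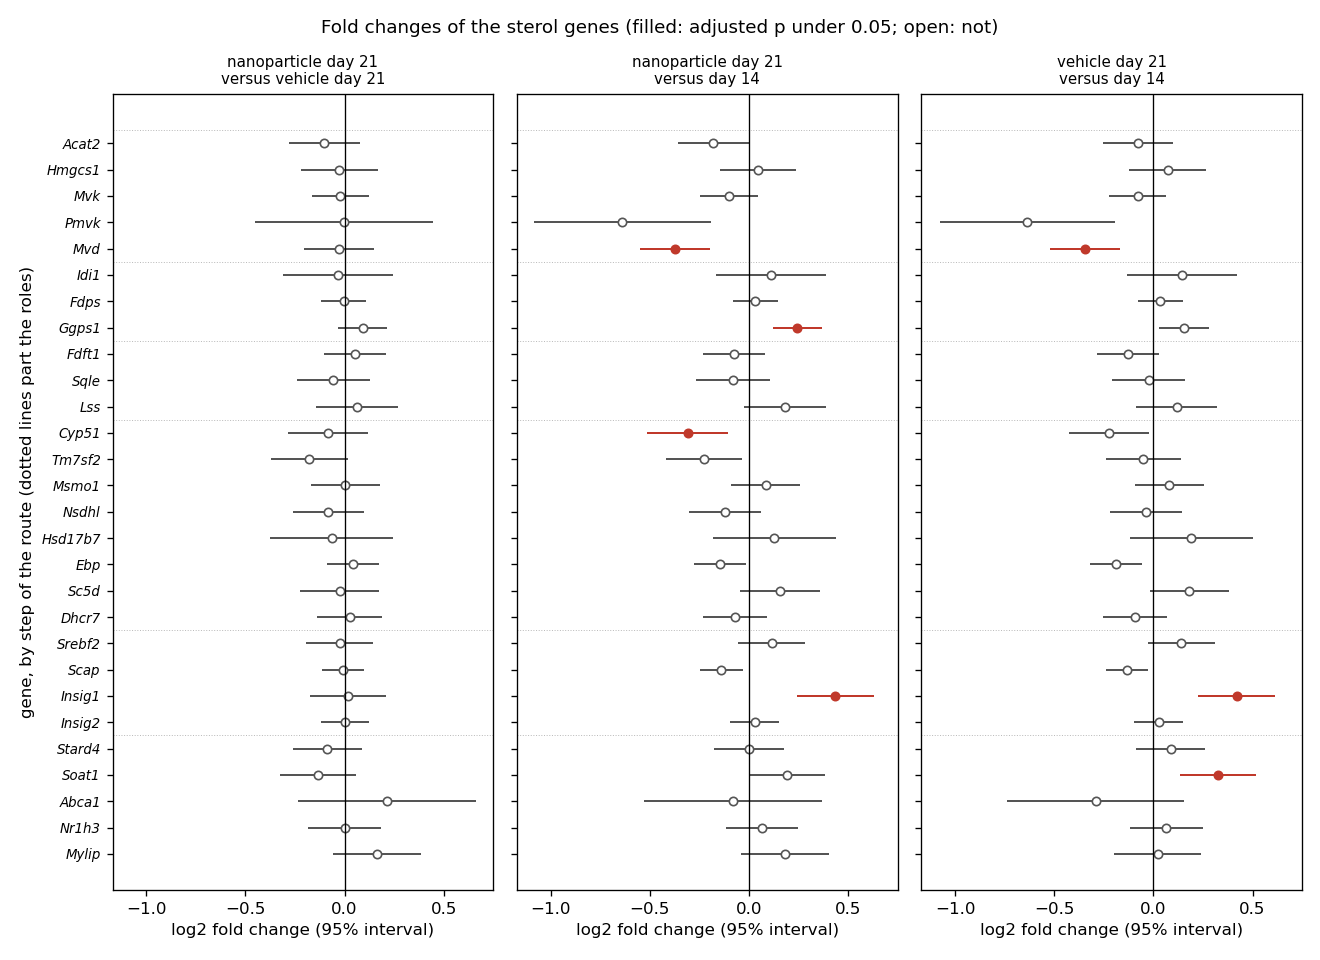
log2 fold change (x axis) of each sterol gene (y axis, by step of the route, dotted lines between steps) in the 3 comparisons, with 95% confidence intervals from edgeR. Filled points passed adjusted p under 0.05 over all genes tested. No point is filled for nanoparticle against vehicle lungs, 4 are filled for nanoparticle against day 14 lungs and 3 for vehicle against day 14 lungs.

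Mouse 3 of the nanoparticle group carried much of the spread in its group. It was the lowest of the 4 in 12 of the 19 enzymes, among them Idi1, the isomerase of the isoprenoid units, at 63.9 CPM against 95.004 to 96.5 CPM in the other 3 mice. Insig1 (82.4 CPM against 98.8 to 100.2) and Stard4 (62.7 CPM against 78.6 to 81.6) were also lowest there. It was the highest of its group in Abca1, in Mylip (67.9 CPM against 48.4 to 52.4) and in Nr1h3 (46.2 CPM against 35.3 to 38.4). Without this mouse, 15 of the 28 log2 fold changes against vehicle were positive and 13 negative, their median was 0.02, and 0 genes had p under 0.05 in edgeR. Whether its neutrophil content bears on these levels was not tested. In the vehicle group, mouse 4 was the highest in 13 of 19 enzymes and mouse 3 the lowest in 10. Among day 14 lungs, mouse 2 was the lowest in 14 of 19.

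**Figure D3:**
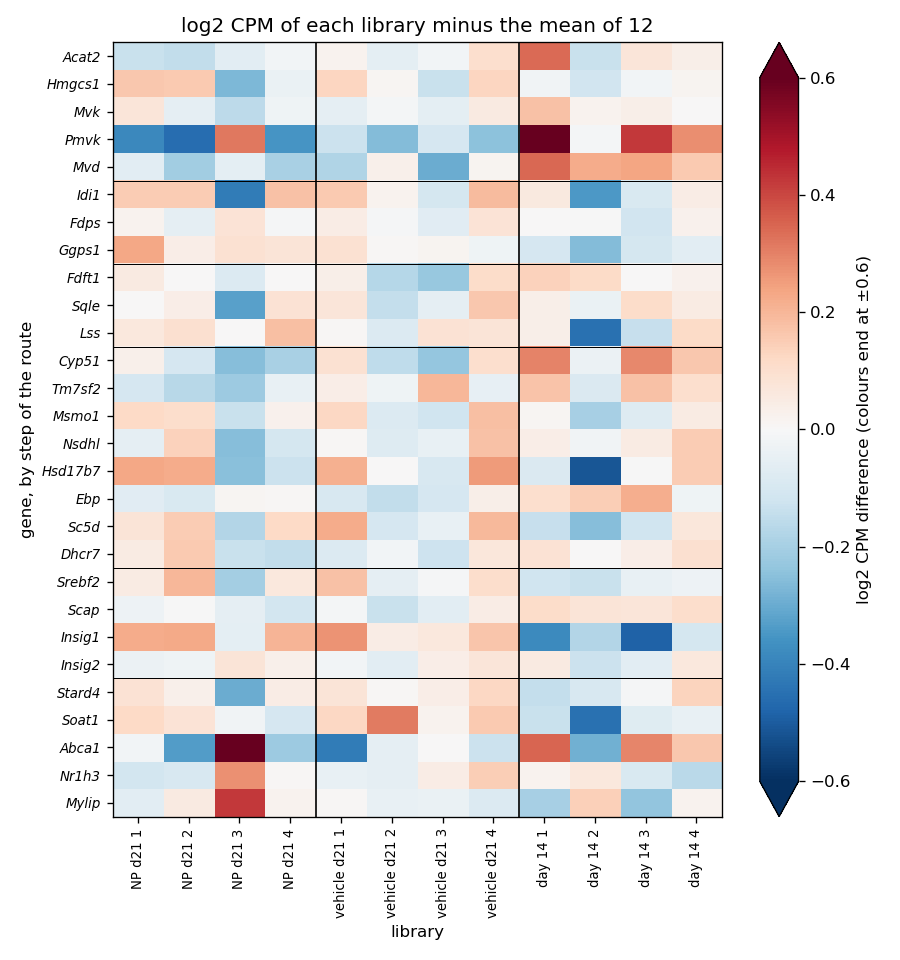
Centred log2 CPM of each sterol gene (rows, by step of the route) in each of the 12 libraries (columns: nanoparticle day 21, vehicle day 21, day 14), as the difference from the mean of the 12. The column of nanoparticle mouse 3 is blue for most enzymes and red for Abca1, Nr1h3, Mylip and Pmvk. The Insig1 and Mvd rows part the day 14 columns from the others in opposite directions, and the Ggps1 and Scap rows part them too, by less.

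The second question was how these genes at day 21 stood against day 14, in nanoparticle lungs and in vehicle lungs. Insig1, which encodes the protein that holds back SCAP, was higher at day 21 in both groups, and Mvd, the decarboxylase that ends the mevalonate steps, was lower in both. Most of the route did not pass the test in either. In nanoparticle against day 14 lungs, 4 of 28 genes passed (2 higher, 2 lower), where 14.7% of all genes tested passed (6.16% higher and 8.56% lower). In vehicle against day 14 lungs, 3 of 28 passed (2 higher, 1 lower), where 10.3% of all genes passed (3.79% higher and 6.51% lower). Both shares of sterol genes are thus near the shares of all genes. The median log2 fold change of the 28 genes was 0.01 for nanoparticle and 0.02 for vehicle lungs, beside 0.01 and 0.00 for all genes tested. These 2 comparisons share the day 14 libraries, so their values are given side by side and are not independent. Day 14 mice had no treatment, while both groups of day 21 had been given particles or vehicle. The later day and the giving of either cannot be told apart in any comparison with day 14.

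Insig1 stood at 100.1, 100.2, 82.4 and 98.8 CPM in nanoparticle lungs, at 103, 88.3, 89.6 and 96.2 CPM in vehicle lungs and at 65.7, 75.8, 61.2 and 79.6 CPM in day 14 lungs. All 8 libraries of day 21 lay above the 4 of day 14. Against day 14 the log2 fold change was 0.44 (SE 0.09, adjusted p = 0.00703 in edgeR) in nanoparticle lungs and 0.42 (SE 0.09, adjusted p = 0.0118) in vehicle lungs. With each of the 12 libraries left out in turn, both calls held, with adjusted p of 0.00273 to 0.0272 for nanoparticle and 0.00514 to 0.0452 for vehicle lungs. The vehicle call was lost in limma on log2(TPM + 1) with no filter on low values (0.44, adjusted p = 0.064). Its relative INSIG2, made from the gene Insig2, averaged 48.1 ± 1.75 CPM in nanoparticle lungs, 48.0 ± 1.95 CPM in vehicle lungs and 47.1 ± 3.04 CPM in day 14 lungs (SD, n = 4 each), with log2 fold changes against day 14 of 0.03 in both. Insig1 (ENSMUSG00000045294) is annotated on chromosome 5 at 28071363 to 28078662 (GRCm38, GENCODE M21).

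Mvd stood at 16.6, 14.996, 16.6 and 15.2 CPM in nanoparticle lungs, at 15.3, 17.7, 14.1 and 17.6 CPM in vehicle lungs and at 22.0, 20.2, 20.5 and 19.3 CPM in day 14 lungs. Each day 14 library was above all 8 of day 21. Against day 14 the log2 fold change was −0.37 (SE 0.08, adjusted p = 0.00993 in edgeR) in nanoparticle lungs and −0.34 (SE 0.08, adjusted p = 0.0188) in vehicle lungs. The call for nanoparticle lungs held with each library left out (adjusted p = 0.00849 to 0.0357). That for vehicle lungs was lost without vehicle mouse 1 or 3 or day 14 mouse 1 or 3, with adjusted p up to 0.0695, and in limma on log2(TPM + 1) with no filter on low values (−0.32, adjusted p = 0.0681). Mvd (ENSMUSG00000006517) is annotated on chromosome 8 at 122433601 to 122443422. The 2 groups of day 21 did not differ detectably from each other in either gene: the log2 fold change of nanoparticle over vehicle lungs was 0.02 (interval −0.18 to 0.21) for Insig1 and −0.03 (interval −0.20 to 0.15) for Mvd.

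**Figure D4:**
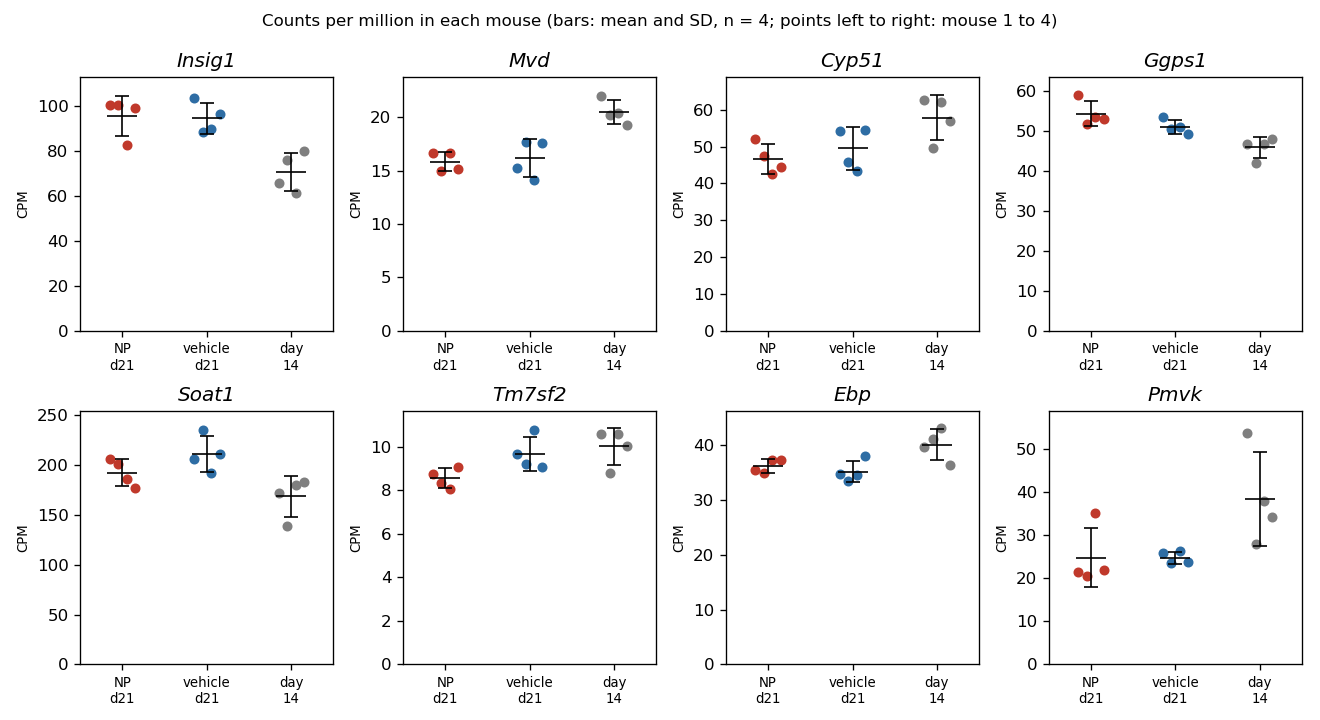
CPM (y axis, from 0) of 8 sterol genes in each mouse of the 3 groups (x axis), with the mean and SD of 4 mice. Insig1 lies higher and Mvd lower in both groups at day 21 than at day 14, without overlap, while the points of Cyp51, Tm7sf2 and Ebp overlap between at least one group of day 21 and day 14.

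The other 3 genes passed in 1 of the 2 comparisons with day 14. Cyp51, the demethylase that opens the way from lanosterol, stood at 52.1, 47.5, 42.7 and 44.5 CPM in nanoparticle lungs, at 54.3, 45.8, 43.4 and 54.6 CPM in vehicle lungs and at 62.5, 49.7, 62.2 and 57.0 CPM in day 14 lungs. Day 14 mouse 2 lay below nanoparticle mouse 1 and below vehicle mice 1 and 4, so the groups overlapped. Its log2 fold change was −0.31 (SE 0.09, adjusted p = 0.0427 in edgeR) for nanoparticle lungs and −0.23 (SE 0.09, adjusted p = 0.14) for vehicle lungs. The first call held in 4 of 12 fits with a library left out. It was lost without nanoparticle mouse 2, 3 or 4, vehicle mouse 1 or 2, or day 14 mouse 1, 3 or 4, with adjusted p up to 0.119, and on deposited TPM in limma (−0.30 on log2(TPM + 1), adjusted p = 0.0638).

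Ggps1, which makes the geranylgeranyl group, stood at 58.9, 51.7, 53.6 and 53.0 CPM in nanoparticle lungs, at 53.5, 50.5, 50.8 and 49.3 CPM in vehicle lungs and at 46.8, 41.9, 46.7 and 48.1 CPM in day 14 lungs. All 8 libraries of day 21 lay above those of day 14. On the log2 scale the change was 0.24 (SE 0.06, adjusted p = 0.0152 in edgeR) for nanoparticle lungs and 0.15 (SE 0.06, adjusted p = 0.108) for vehicle lungs. The first call held with each library left out (adjusted p = 0.0123 to 0.0395). It was lost on deposited TPM in limma, with 0.20 and adjusted p = 0.0846 on log2(TPM + 1), and adjusted p = 0.085 with a pseudocount of 0.1 and 0.157 with no filter on low values. Exons of Ggps1 share 5.44% of their bases with Arid4b, and those of Cyp51 share 3.76% with Akap9, on the opposite strand in both cases. The strand setting of the counting was not given in the sources used here.

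Soat1 stood at 206, 201, 186 and 176 CPM in nanoparticle lungs, at 206, 235, 192 and 211 CPM in vehicle lungs and at 172, 139, 179.9 and 183 CPM in day 14 lungs. The vehicle libraries all lay above those of day 14, and the nanoparticle libraries overlapped both. The log2 fold change was 0.19 (SE 0.09, adjusted p = 0.168 in edgeR) for nanoparticle lungs and 0.32 (SE 0.09, adjusted p = 0.0355) for vehicle lungs. The vehicle call held in 7 of 12 fits with a library left out and was lost without vehicle mouse 1, 2 or 4 or day 14 mouse 1 or 3 (adjusted p up to 0.0784). On deposited TPM its log2 fold change was 0.19, with adjusted p = 0.453 in limma. Cyp51, Ggps1 and Soat1 each passed against day 14 in 1 group only, and the difference between the 2 groups of day 21 did not pass for any of them: −0.08 (interval −0.29 to 0.12) for Cyp51, 0.09 (interval −0.03 to 0.22) for Ggps1 and −0.14 (interval −0.33 to 0.06) for Soat1, nanoparticle over vehicle.

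Pmvk, which adds the second phosphate to mevalonate, had the largest fold changes of the 28 without passing, and is described for that reason, chosen after its values were seen. It stood at 21.5, 20.5, 35.0 and 22.0 CPM in nanoparticle lungs, at 25.7, 23.4, 26.2 and 23.7 CPM in vehicle lungs and at 53.7, 27.9, 37.8 and 34.1 CPM in day 14 lungs. Nanoparticle mouse 3 lay among the day 14 libraries, while the vehicle libraries all lay below them. The log2 fold change was −0.64 (SE 0.20, adjusted p = 0.0556 in edgeR) for nanoparticle lungs and −0.64 (SE 0.20, adjusted p = 0.0666) for vehicle lungs. Both passed without nanoparticle mouse 3 or without day 14 mouse 2, and the lowest adjusted p were 0.0077 for nanoparticle and 0.0232 for vehicle lungs.

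Ebp, the isomerase that shifts the sterol double bond, had the smallest p in vehicle against day 14 lungs among the genes that did not pass. It stood at 35.4, 34.8, 37.3 and 37.2 CPM in nanoparticle lungs, at 34.7, 33.4, 34.5 and 38.0 CPM in vehicle lungs and at 39.7, 41.1, 43.1 and 36.4 CPM in day 14 lungs. Day 14 mouse 4 overlapped both groups of day 21. The log2 fold change was −0.15 (SE 0.06, adjusted p = 0.12 in edgeR) for nanoparticle lungs and −0.19 (SE 0.06, adjusted p = 0.0638) for vehicle lungs. The vehicle value passed without vehicle mouse 4 or day 14 mouse 4 (lowest adjusted p = 0.0321).

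The rest of the route, step by step, did not pass in either comparison with day 14. Of the 5 mevalonate genes, 4 had values below 0 in each comparison, and Hmgcs1 was the one above it, with 0.05 (SE 0.09) for nanoparticle and 0.07 (SE 0.09) for vehicle lungs. Acat2 had −0.18 and −0.08, and Mvk, the mevalonate kinase, −0.10 and −0.08. All 3 isoprenoid genes had values above 0 in both, with Idi1 at 0.11 and 0.14 and Fdps at 0.03 in both. Without nanoparticle mouse 3, the nanoparticle values were 0.25 for Idi1 (unadjusted p = 0.0202, adjusted p = 0.0887 in edgeR) and 0.14 for Hmgcs1 (adjusted p = 0.225). Of the squalene genes, Fdft1, the squalene synthase, had −0.08 and −0.13, Sqle −0.08 and −0.02, and Lss 0.18 and 0.12. Exons of Fdft1 share 18.3% of their bases with Ctsb on the opposite strand, which had a mean count of 26525 against 1289 for Fdft1, so reads of the 2 genes may not be fully parted.

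After lanosterol, 5 of the 8 genes had values below 0 in each comparison and 3 above it, in order nanoparticle then vehicle lungs. Sc5d, a desaturase, had 0.16 and 0.18, Msmo1, the methylsterol oxidase, 0.08 in both, and Hsd17b7 0.13 and 0.19. Nsdhl, a decarboxylating dehydrogenase, had −0.12 and −0.04, Dhcr7 −0.07 and −0.09, and Tm7sf2 −0.23 and −0.05. In the sensor, Srebf2 had 0.12 (SE 0.08) and 0.14 (SE 0.08).

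Scap, the escort of SREBP2, stood at 74.8, 76.2, 73.6 and 70.6 CPM in nanoparticle lungs, at 75.6, 69.6, 72.9 and 78.6 CPM in vehicle lungs and at 82.3, 80.5, 80.3 and 82.1 CPM in day 14 lungs. All 4 day 14 libraries lay above the other 8. Its log2 fold changes were small, −0.14 (SE 0.05, adjusted p = 0.0743 in edgeR) for nanoparticle and −0.13 (SE 0.05, adjusted p = 0.103) for vehicle lungs, and did not pass. Counting all 28 genes, 2 had their 4 nanoparticle libraries above the 4 of day 14 (Insig1 and Ggps1) and 2 below (Mvd and Scap), where 8.47% of all genes lay above, 10.6% below and 19% one way or the other. For vehicle lungs, 3 lay above (Insig1, Ggps1 and Soat1) and 3 below (Mvd, Scap and Pmvk), where 7.2% of all genes lay above, 10.7% below and 17.9% one way or the other.

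Transport and efflux genes other than Soat1 did not pass. Abca1 averaged 208 ± 69.3 CPM in nanoparticle lungs, 179 ± 22.0 CPM in vehicle lungs and 219 ± 40.4 CPM in day 14 lungs (SD, n = 4 each). The 3 groups overlapped, and its log2 fold change against day 14 was −0.08 (interval −0.53 to 0.37) for nanoparticle and −0.29 (interval −0.74 to 0.16) for vehicle lungs. Without nanoparticle mouse 3 the nanoparticle value of Abca1 was −0.32 (interval −0.63 to −0.01, unadjusted p = 0.0416, adjusted p = 0.14 in edgeR). Stard4 had −0.0013 and 0.09, Nr1h3 0.07 and 0.06, and Mylip 0.18 and 0.02, nanoparticle then vehicle lungs. Without that mouse the nanoparticle values were 0.09 for Stard4, −0.02 for Nr1h3 and 0.08 for Mylip. The count of sterol genes that passed against day 14 ran from 3 to 6 for nanoparticle lungs with a library left out. For vehicle lungs it ran from 1 to 4, and it was 1, Insig1, without vehicle mouse 1, day 14 mouse 1 or day 14 mouse 3.

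Markers of several other cell types also differed between day 14 lungs and both groups at day 21, and their part in the results was not tested. In these lists a marker counts as lower or higher only where it passed adjusted p under 0.05 in edgeR against day 14. Over all genes tested, 6.16% passed as higher and 8.56% as lower in nanoparticle lungs, and 3.79% and 6.51% in vehicle lungs. All 15 markers of dividing cells were lower than at day 14 in both groups, with summed levels of 77.9 to 169 CPM in nanoparticle lungs, 115 to 204 CPM in vehicle lungs and 341 to 364 CPM in day 14 lungs. Of 8 markers of transitional epithelium, 7 passed as lower in each group, and all 8 had log2 fold changes below 0. Of 12 markers of SPP1-type macrophages, 4 passed as lower in nanoparticle and 8 in vehicle lungs. Their log2 fold changes ran from −1.35 to 0.16 and from −1.23 to −0.06, in the same order. Of 12 markers of alveolar type 2 cells, 2 passed as higher in nanoparticle and 3 in vehicle lungs, and 0 passed as lower in either. Their log2 fold changes ran from −0.23 to 0.37 in nanoparticle and from −0.14 to 0.42 in vehicle lungs. Of 10 markers of monocytes and interstitial macrophages, 3 passed as lower and 1 as higher in nanoparticle lungs. In vehicle lungs 4 passed as lower and 0 as higher. The 10 summed to 580 to 915 CPM in nanoparticle lungs, 592 to 646 CPM in vehicle lungs and 755 to 1037 CPM in day 14 lungs. Of 10 fibroblast markers, 4 passed as lower and 2 as higher in nanoparticle lungs, and 3 as lower and 2 as higher in vehicle lungs. Their sums were 4643 to 5598 CPM, 5375 to 5922 CPM and 6111 to 6949 CPM in nanoparticle, vehicle and day 14 lungs. Of 12 alveolar macrophage markers, 2 passed as higher in each group, and 1 passed as lower in nanoparticle and 0 in vehicle lungs. Their median log2 fold change was −0.11 in nanoparticle and −0.17 in vehicle lungs. Of 8 alveolar type 1 markers, 1 passed as higher and 2 as lower in each group. Of 7 airway markers, 2 passed as higher and 0 as lower in each. Of the markers of endothelium, T cells, B cells, neutrophils, adipocytes, hepatocytes and heart muscle, 0 passed in either group. Of 15 circadian clock genes, 1 passed as higher and 1 as lower in each. Of 10 immediate early genes, 0 passed in nanoparticle lungs and 2 passed as lower in vehicle lungs.

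The other genes of the pathway were read from 4 lists, and in nanoparticle against vehicle lungs 0 genes of any of them passed. Against day 14, 14.7% of all genes tested passed in nanoparticle and 10.3% in vehicle lungs, to be read beside each list. Among 25 other sterol genes tested of 26 listed, Vldlr, a lipoprotein receptor, was higher than at day 14 in nanoparticle (0.36, adjusted p = 0.00469 in edgeR) and vehicle lungs (0.34, adjusted p = 0.0102). Scarb1, a receptor for high-density lipoprotein, was lower in nanoparticle (−0.45, adjusted p = 0.00969) and vehicle lungs (−0.59, adjusted p = 0.0038). Npc2, which hands cholesterol out of lysosomes, passed as lower in nanoparticle lungs (−0.45, adjusted p = 0.0235) and had −0.38 (adjusted p = 0.0531) in vehicle lungs. No other gene of that list passed. Its median log2 fold change was −0.05 for nanoparticle and −0.07 for vehicle lungs.

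Among 17 liver X receptor targets and oxysterol genes tested of 20 listed, Ch25h, which makes an oxysterol, was lower by the largest amount. It stood at 8.23, 5.15, 11.9 and 5.65 CPM in nanoparticle lungs, at 6.24, 6.48, 6.63 and 5.29 CPM in vehicle lungs and at 16.0, 18.6, 17.7 and 11.8 CPM in day 14 lungs. The vehicle libraries all lay below those of day 14, and nanoparticle mouse 3 just reached the lowest of them. The log2 fold change was −1.05 (SE 0.23, adjusted p = 0.0101 in edgeR) for nanoparticle and −1.38 (SE 0.23, adjusted p = 0.00427) for vehicle lungs. Pltp, a phospholipid transfer protein, was higher in both (0.22 and 0.24, adjusted p = 0.0439 and 0.0406). In vehicle lungs Abcg1, a sterol exporter (−0.30, adjusted p = 0.0431), Apoc1 (−0.57, adjusted p = 0.0324) and Cyp7b1, an oxysterol hydroxylase (−0.76, adjusted p = 0.042), passed as lower too. In nanoparticle lungs they had −0.26 (adjusted p = 0.0629), −0.46 (adjusted p = 0.0616) and −0.60 (adjusted p = 0.0811), in the same order.

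The prenylation list, which uses the products of Fdps and Ggps1, had 16 genes tested. Chm and Chml, the escort proteins of Rab prenylation, were higher than at day 14 in nanoparticle lungs (0.32 and 0.34, adjusted p = 0.00586 and 0.0083 in edgeR) and in vehicle lungs (0.26 and 0.28, adjusted p = 0.0239 and 0.0275). Pggt1b, a subunit of the geranylgeranyl transferase, passed as higher in nanoparticle lungs (0.19, adjusted p = 0.019) and had 0.14 (adjusted p = 0.0833) in vehicle lungs. Fntb, a subunit of the farnesyl transferase, passed as lower in vehicle lungs (−0.30, adjusted p = 0.0389) and had −0.26 (adjusted p = 0.0505) in nanoparticle lungs. Of 19 genes of fatty acid synthesis under SREBP1, only Acacb, an acetyl-CoA carboxylase, passed, and it was higher in nanoparticle (0.35, adjusted p = 0.0115) and vehicle lungs (0.29, adjusted p = 0.0307). Scd1 and Srebf1 stand in both that list and the liver X receptor list.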

How the data were processed

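PolyA RNA of whole lungs was sequenced in read pairs of 151 bp, as the labels' protocols state. Tools listed in the submitters' processing notes are RSEM 1.3.3, STAR 2.7.8a, cutadapt 4.8, FastQC 0.11.8 and MultiQC 1.20, with build GRCm38. Neither the annotation release nor the strand setting was given in the sources used here. The first deposited table holds expected counts per gene as the authors estimated them, by its name. The counts of the sterol genes in it were whole numbers, and its library totals were not scaled to a common value. All counts were rounded to whole numbers before the fit. The other deposited tables give TPM and FPKM, both scaled for library size and length, as the deposited tables are named. All 12 columns were matched through library names in the labels (0 left without a label).

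The counts were fitted with edgeR 4.0.16 in R 4.3.3: filterByExpr by group (minimum count 10, minimum total 15), TMM scaling, 12 libraries in 1 robust quasi-likelihood fit with a group term, and a two-sided contrast for each of 3 comparisons. Adjusted p is Benjamini-Hochberg over the 17909 genes tested, with 0.05 as the threshold. Intervals are 95% and come from the same fit. CPM is counts over TMM-scaled library sizes. Library pairs within a group differed beyond sampling noise (chi-square per degree of freedom 7.95 to 33.1), so each mouse counts once. List scores average the log2 CPM (prior count 2) of the genes listed, each centred over 12 libraries. Scripts were tested on simulated data. Alternatives used DESeq2 1.42.0, limma 3.58.1 on log2 of TPM or FPKM plus a pseudocount (1 or 0.1), other scalings, no filter, the 8 libraries compared, a replicate block, and each library left out.

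Promoter windows were read from a RefSeq table (GRCm38.p6), and gene positions and exon overlaps from GENCODE M21. The sterol genes, their steps and the marker and pathway lists were chosen with earlier results of these data known. Genes named by rule are those past the threshold in any comparison, then those of smallest p up to 6, the gene of highest TPM at each step, and the called genes of the pathway lists. Pmvk, Abca1 and Scap were given per mouse after their values were seen.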

Additional observations from a re-analysis of the deposited data

Results flagged for a closer look

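In 5 of the 84 sets of 4 libraries (28 genes in 3 groups), 1 mouse lay apart from the other 3 by more than Dixon's 95% critical value for the share of the range taken by the gap. Chance alone gives about 1 in 20 such sets. In the nanoparticle group, mouse 3 accounted for 4 of the 5. Its Idi1 level of 63.9 CPM lay below 95.004 to 96.5 CPM in the other mice (share 0.953), its Insig1 level of 82.4 CPM below 98.8 to 100.2 CPM (share 0.922), and its Stard4 level of 62.7 CPM below 78.6 to 81.6 CPM (share 0.843). Its Pmvk level of 35.0 CPM lay above 20.5 to 22.0 CPM (share 0.896). Day 14 mouse 1 was the fifth, with Mvk at 20.7 CPM above 18.4 to 18.7 CPM (share 0.837). Without nanoparticle mouse 3, the log2 fold change of nanoparticle over vehicle lungs was 0.09 for Idi1, 0.08 for Insig1, −0.0072 for Stard4 and −0.21 for Pmvk, and none had p under 0.05 in edgeR.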

How the results depend on the processing

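No sterol gene passed in nanoparticle against vehicle lungs under any of the 10 alternatives or with any library left out, and the median log2 fold change ran from −0.04 to 0.02 with a library left out. Against day 14 with a library left out, nanoparticle lungs gave 3 to 6 sterol genes (median −0.02 to 0.05) and vehicle lungs 1 to 4 (median 0.0024 to 0.05). The calls of Insig1 and Mvd in nanoparticle lungs held under each alternative. Limma on log2(TPM + 1), log2(TPM + 0.1) and unfiltered log2(TPM + 1) gave 2 sterol genes for nanoparticle lungs, losing Cyp51 and Ggps1, and a median of −0.0017 or −0.0016. The unfiltered log2(TPM + 1) gave 0 for vehicle lungs, with Insig1 at adjusted p = 0.064 and Mvd at 0.0681 over 33855 genes. DESeq2 added Pmvk in both comparisons (adjusted p = 0.0103 and 0.0127), and upper quartile scaling added it for nanoparticle lungs (adjusted p = 0.0493). The fit of 8 libraries lost Cyp51 (adjusted p = 0.0563) and Soat1 (adjusted p = 0.0521) and added Pmvk for vehicle lungs, and log2(FPKM + 1) lost Cyp51 (adjusted p = 0.051) and Soat1 (adjusted p = 0.374). The cause was not tested. Signs near 0 turned in nanoparticle against vehicle lungs: Insig1 was −0.0024 under upper quartile scaling, and with a library left out Insig1 ran from −0.0162 to 0.0804, Pmvk from −0.215 to 0.0757 and Mvd from −0.0921 to 0.0182. Mouse numbers were treated as names of separate animals, with no pairing in the main fit. Residuals of equal numbers correlated at −0.18 to 0.08 (nanoparticle with vehicle), −0.10 to 0.17 (nanoparticle with day 14) and −0.0067 to 0.35 (vehicle with day 14). Those of unequal numbers ran from −0.41 to 0.43, −0.32 to 0.26 and −0.41 to 0.49 in the same order. For vehicle with day 14 the means were 0.18 for equal and −0.05 for unequal numbers. With 4 mice per group these values cannot decide whether equal numbers share anything. A fit with the replicate block gave 5 sterol genes for nanoparticle lungs, adding Pmvk (adjusted p = 0.0399), and 2 for vehicle lungs, losing Soat1 (adjusted p = 0.0624). Over all genes, nanoparticle against day 14 lungs gave 1103 higher and 1533 lower, but 607 and 1000 under log2(TPM + 1), 218 and 606 without a filter there, and 702 and 970 from 8 libraries. Vehicle against day 14 lungs gave 679 higher and 1166 lower, 337 and 714 under log2(TPM + 1), 72 and 309 without a filter there, and 888 and 934 under upper quartile scaling. With a library left out, the counts were 495 to 1358 higher and 837 to 1594 lower for nanoparticle lungs, and 212 to 897 higher and 492 to 1265 lower for vehicle lungs. Groups of 4 mice and whole-lung RNA limit what small shifts or shifts in rare cells could be seen.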

Other observations

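Mouse 3 of the nanoparticle group paired low levels of several sterol synthesis genes with high levels of some liver X receptor targets and fatty acid synthesis genes. Scd1, the stearoyl-CoA desaturase, stood at 6785 CPM in that mouse, against 2274 to 3048 CPM in the other 3 nanoparticle lungs, 2353 to 3396 CPM in vehicle lungs and 2384 to 3202 CPM in day 14 lungs. Srebf1, which encodes the regulator of fatty acid synthesis, stood at 164 CPM there and at 107.7 to 109 CPM in the other nanoparticle lungs. Fasn, the fatty acid synthase, stood at 899 CPM there, against 564 to 640.2 CPM in the others. Apoe, which carries lipid out of macrophages, stood at 1800.3 CPM there, against 883 to 1085 CPM in the others, beside 889 to 1157 CPM in vehicle lungs and 1284 to 1631 CPM in day 14 lungs. The summed level of the 12 alveolar macrophage markers was 2002 CPM in this mouse, against 684 to 904 CPM in the other nanoparticle lungs. It was 758 to 890 CPM in vehicle lungs and 928 to 1421 CPM in day 14 lungs. The mean centred log2 CPM of these markers was 0.28 in this mouse and 0.26 in day 14 mouse 1. Neutrophil markers of this mouse were the highest of all 12 libraries. Other members of the liver X receptor and fatty acid synthesis lists were lowest of the group in this mouse. Among them were Fads1 (129 CPM against 138 to 159), Gpam (143 CPM against 147 to 169.8), Elovl6 (7.74 CPM against 8.40 to 11.4) and Cyp27a1 (18.3 CPM against 19.3 to 22.5). These genes were picked after their values were seen, they concern 1 mouse, and no test applies.

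The markers of neutrophils were measured at 102 to 1245 CPM in nanoparticle lungs, 68.5 to 166 CPM in vehicle lungs and 51.6 to 109 CPM in day 14 lungs. The top value was that of nanoparticle mouse 3. Mice 1, 2 and 4 of that group, at 120, 122 and 102 CPM, lay within the vehicle range. Of the 8 markers, 0 passed in nanoparticle against vehicle lungs, where 0% of all genes passed.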
